A study of Mus musculus with 4 samples.

Results

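Linker histones and replacement histones are chromatin proteins whose genes are a small side branch of the histone family, and 6 of those with a nearby peak of SOX3, an SRY-related transcription factor of the SOXB1 group, in mouse testis at postnatal day 7 are described here. They were taken from the authors' table of 778 peaks found in at least 2 replicates by the gene symbol given there: the linker genes Hist1h1c, Hist1h1d and H1fx, and the replacement genes H3f3b, H2afx and H2afy. Each of the 6 had 1 common peak, so they account for 6 of the 778. The related genes Hist1h1e and Hist1h2ba, which also had a common peak, were not among the genes chosen and are given only for comparison. Their presence in the common table, their distance from the transcription start site (TSS) and their scores were the values the genes were chosen by. These values are therefore given as a description and without a test.

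Linker histones of the H1 family sit on the outside of the nucleosome, where DNA enters and leaves it, and help chromatin to fold. The core histones that build the nucleosome are made mainly during DNA replication from clustered genes without introns. Replacement histones are made through the whole cell cycle, mostly from single genes with introns and polyadenylated transcripts, and are placed into chromatin outside replication. In the male germ line histones of both classes are exchanged for testis forms and later for protamines. At postnatal day 7 the tubules hold spermatogonia among Sertoli cells and no haploid cells.

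The samples were 3 SOX3 ChIP libraries and 1 input library, all labelled as testis of strain 129/SvJ at age P7. The ChIP libraries were made with a goat antibody raised against human SOX3 and came from 3 different testes, per the design text. The labels' protocols name a Sox3 null line on a mixed background, crossed onto 129/SvJ and used at the F6 generation, and give no genotype for a single testis. Whole testis was used, so the cell type that gave a signal is not known from these data. The titles of the 3 ChIP libraries carry the word Biol, which may stand for biological replicate. No source used here says whether the testes came from different animals, and the spread between replicates may be in part technical. The input was not analysed here, so no value below carries a measured background. The replicate lists held 2912, 2598 and 2734 peaks, with median scores of 47.8, 48.1 and 47.3 and a lowest score of 40 in each. Read depth is unknown, since the lists hold no read numbers.

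The promoters of 4 of the genes are shown because 5 of the 6 peaks lay at or just behind a TSS, and because the sequence in front of the start was not used in the choice. Each line gives the 250 bases before the start, from the RefSeq promoter table (assembly GRCm38.p6), 5′ to 3′ on the strand of the gene. Capitals mark each match, on either strand, to 1 of the 8 motifs searched or to a 10-base string described with them. The places are chr13:23738557-23738806 on the plus strand for Hist1h1c, chr13:23554782-23555031 on the plus strand for Hist1h1d, chr6:87981483-87981732 on the minus strand for H1fx and chr11:116024505-116024754 on the minus strand for H3f3b. The peaks are in mm9 coordinates, which cannot be set against these numbers.
Hist1h1c: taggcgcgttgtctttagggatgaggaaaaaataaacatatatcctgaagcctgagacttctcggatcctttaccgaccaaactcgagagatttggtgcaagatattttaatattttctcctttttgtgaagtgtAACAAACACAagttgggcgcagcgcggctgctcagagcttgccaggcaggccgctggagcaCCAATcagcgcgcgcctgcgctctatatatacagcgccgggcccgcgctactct
Hist1h1d: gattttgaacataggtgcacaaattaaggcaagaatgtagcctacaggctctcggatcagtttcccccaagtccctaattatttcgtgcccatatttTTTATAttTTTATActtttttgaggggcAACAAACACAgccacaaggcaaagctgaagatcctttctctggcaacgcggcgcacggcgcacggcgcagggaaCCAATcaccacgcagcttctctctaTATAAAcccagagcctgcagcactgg
H1fx: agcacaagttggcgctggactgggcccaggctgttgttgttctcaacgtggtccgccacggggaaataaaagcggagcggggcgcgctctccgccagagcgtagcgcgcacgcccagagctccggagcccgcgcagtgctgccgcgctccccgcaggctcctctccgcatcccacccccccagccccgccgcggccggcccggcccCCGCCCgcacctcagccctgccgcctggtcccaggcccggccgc
H3f3b: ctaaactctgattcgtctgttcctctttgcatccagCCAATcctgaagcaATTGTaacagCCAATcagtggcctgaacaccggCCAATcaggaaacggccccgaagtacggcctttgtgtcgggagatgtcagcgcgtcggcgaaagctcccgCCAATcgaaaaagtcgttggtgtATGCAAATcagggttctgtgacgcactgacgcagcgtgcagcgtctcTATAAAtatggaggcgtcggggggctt

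SOX3 peaks at the replacement genes H3f3b and H2afx were among the stronger ones of every whole list and lay across the TSS. Among common peaks within 1000 bp of a TSS, H2afx stood only at places 47 of 115, 46 of 109 and 33 of 109 in replicates 1, 2 and 3. The H1 genes of the histone cluster had peaks with the midpoint in their single exon. H1fx, the linker gene outside the cluster, had a peak that was centred upstream of its TSS and also lay across it. The ranks of all 3 linker genes differed between the replicate lists, with SDs of 12.5 to 33.9% of the list. Those of H3f3b and H2afx differed too, with SDs of 1.77 and 2.99%. H2afy differed from the others in place, with a peak deep in an intron. A common peak in all 3 lists was found at 4 of the 6 genes (Hist1h1c, H1fx, H3f3b and H2afx), where 29.9% of all common peaks were in all 3 lists. All 4 lay within 1000 bp of a TSS, and of the common peaks that near 48.5% were in all 3 lists. The same 4 were in all 3 lists under a 50% reciprocal overlap, which 19.9% of the common peaks passed. At Hist1h1c, Hist1h1d, H3f3b and H2afy the common peak had the same edges as the replicate 1 peak. Its midpoint there was thus that of replicate 1, and replicate 1 passed any overlap limit in advance. Hist1h1d and H2afy had a peak in replicates 1 and 3 and none in replicate 2.

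**Figure D1:**
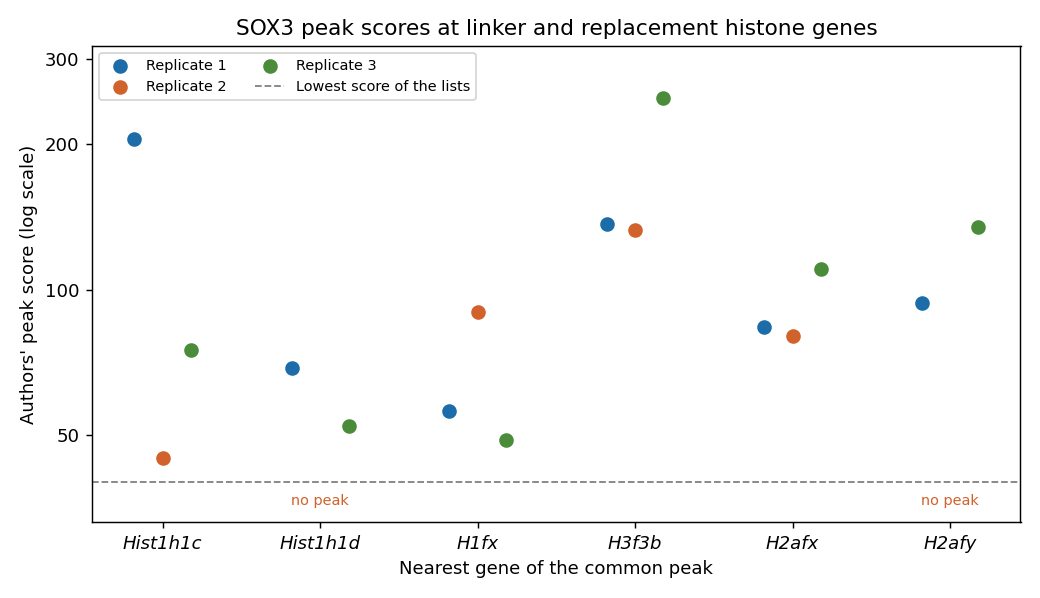
The authors' peak score (vertical axis, log scale) of the replicate peak at each gene's common peak, 1 point per replicate list, with the lowest score of the lists as a dashed line. H3f3b has the highest point in replicates 2 and 3 and Hist1h1c in replicate 1, while Hist1h1d and H2afy have no peak in replicate 2.

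Among the linker genes, Hist1h1c, which encodes the somatic subtype H1.2, had its common peak on chromosome 13 from 23830594 to 23831031. HOMER classed it in exon 1 of 1, with its midpoint 136 bp downstream of the TSS. The authors' score, which was read only within a list, was 205 in replicate 1, 44.8 in replicate 2 and 75.1 in replicate 3. The peak was thus among the strongest in replicate 1 and close to the lowest score kept in replicate 2. Its ranks were 71 of 2912, 1699 of 2598 and 335 of 2734 peaks. As a percent of the list these are 2.44, 65.4 and 12.3%, a mean of 26.7 ± 33.9% (SD, n = 3), so the spread was larger than the mean. The replicate 2 peak was the only one of the 16 at these genes with a score below the median of its list.

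Hist1h1d, which encodes the subtype H1.3, had a weaker peak on chromosome 13 from 23646976 to 23647201, also in exon 1 of 1 and 187 bp downstream of the TSS. Its score was 68.8 in replicate 1 and 52.1 in replicate 3, at ranks of 468 and 924, and replicate 2 held no peak there. In percent of the list the rank was 16.1 and 33.8% (mean 24.9 ± 12.5%, SD, n = 2). The starts of Hist1h1d and Hist1h1c lay 183775 bp apart, and between their peaks stood 4 other common peaks, all 4 with a clustered histone gene as the nearest gene.

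Both cluster genes had another histone gene peak within 10000 bp. The Hist1h4f peak, from 23643136 to 23643389, was separated from that of Hist1h1d by 3586 bp and scored 65.8, 61.8 and 61.0 in replicates 1, 2 and 3. In replicate 2, then, Hist1h4f had a peak and Hist1h1d had none. The Hist1h2bb peak was separated from that of Hist1h1c by 7737 bp and scored 43.8 in replicate 2 and 61.1 in replicate 3. Replicate 1, where Hist1h1c ranked best, held no peak at Hist1h2bb. A further peak of replicate 2 alone, from 23836972 to 23837437 with a score of 74.7, lay 5940 bp from the Hist1h1c peak and in no common peak.

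H1fx encodes H1.10, a replication-independent linker histone, and stands apart from the cluster on chromosome 6. Its peak, from 87931410 to 87931718, was classed at the promoter with its midpoint 88 bp upstream of the TSS, the only 1 of the 6 with a midpoint upstream. The scores were 56.1 in replicate 1, 90.1 in replicate 2 and 48.9 in replicate 3, at ranks of 857, 251 and 1169. Replicate 2, where Hist1h1c ranked lowest and Hist1h1d had no peak, gave the best rank of H1fx. The mean rank was 27.3 ± 16.7% of the list (SD, n = 3). In replicate 1 a second peak, with a score of 54.8, lay 69 bp beyond the upstream edge of the common peak, from 312 to 503 bp before the TSS, and so just outside the 1 bp overlap that counted as shared.

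H3f3b, a gene for the replacement histone H3.3, had the highest score among the 6 genes in replicates 2 and 3 and the second highest in replicate 1. Its peak on chromosome 11 from 115885513 to 115885926 was classed at the promoter, 99 bp downstream of the TSS. Scores were 137 in replicate 1, 133 in replicate 2 and 249.6 in replicate 3, at ranks of 133, 135 and 51. The peak lay in the top 5.20% of every list, with a mean rank of 3.88 ± 1.77% (SD, n = 3). This SD was the smallest among the 4 genes with 3 values. Ranks near the top leave little room for a spread in percent, so it does not show that the peak was the most reproducible. Replicate 3 held a second peak, with a score of 88.3, that overlapped the common peak by 7 bp and reached from 102 to 350 bp upstream of the TSS. Replicate 1 held another, with a score of 87.1, from 1105 to 1500 bp downstream and in no common peak. H3f3a, which encodes the same protein, had no common peak.

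H2afx encodes H2A.X, the core histone that is phosphorylated around DNA breaks and over the sex chromosomes in meiosis. Its peak on chromosome 9 from 44142701 to 44142969 was classed at the promoter, 37 bp downstream of the TSS, the shortest distance of the 6. The scores of 83.8, 80.3 and 110.4 in replicates 1, 2 and 3 gave ranks of 309, 307 and 168. All 3 lay in the top 11.8% of their lists, with a mean rank of 9.52 ± 2.99% (SD, n = 3). H2afx scored below H3f3b in every list, and the ranks in percent of the 2 genes did not overlap (1.87 to 5.20% against 6.14 to 11.8%).

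H2afy encodes macroH2A1, an H2A variant with a large extra domain that is known from silent chromatin such as the inactive X chromosome. Its peak lay on chromosome 13 from 56199755 to 56200260, in intron 4 of 8 and 36904 bp downstream of the TSS, outside the histone cluster. With a score of 93.7 in replicate 1 and 135 in replicate 3, at ranks of 259 and 117, it was stronger than H2afx in both lists. Replicate 2 had no peak within 10000 bp of it. The mean rank was 6.59 ± 3.26% (SD, n = 2), between H3f3b and H2afx, and its 2 values overlapped the ranges of both. The rank values of Hist1h1c and H1fx overlapped each other and those of Hist1h1d.

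The position of the peaks against the TSS divided the 5 near genes in the same way in each replicate that had a peak, apart from replicate 1 at Hist1h1c. All 3 replicate peaks covered the TSS at H3f3b, at H1fx and at H2afx. For H2afx, whose strand is not in the promoter table, both possible places of the TSS were covered. At Hist1h1c the replicate 1 peak covered it, from 82 bp upstream to 355 bp downstream, while the peaks of replicates 2 and 3 began 27 and 12 bp downstream. At Hist1h1d neither peak covered it, and they began 75 and 104 bp downstream. The midpoints of the replicate peaks were 156 ± 17.6 bp downstream at Hist1h1c (SD, n = 3), 214 ± 38.9 bp at Hist1h1d (SD, n = 2) and 128 ± 47.7 bp at H3f3b (SD, n = 3). At H1fx they lay at −116, −56 and −7 bp, a mean of −59.7 ± 54.6 bp (SD, n = 3), upstream in 3 of 3 lists.

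**Figure D2:**
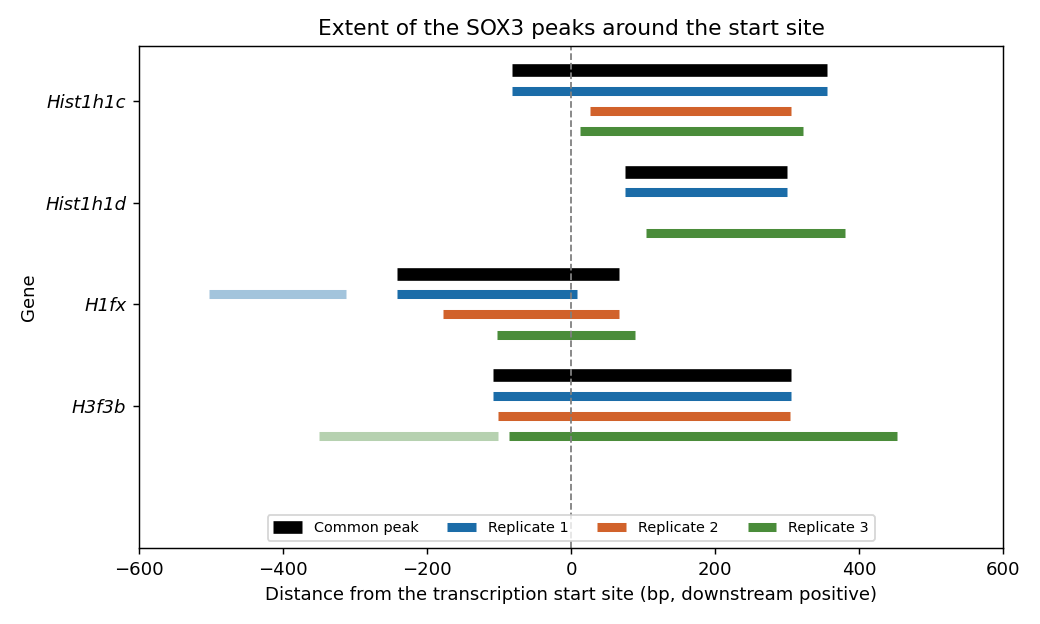
Extent of the common peak (black) and of the replicate peaks (coloured) around the TSS (horizontal axis, in bp, downstream positive) at 4 genes. Pale bars are further peaks of the same list: at H1fx from 312 to 503 bp upstream in replicate 1 and at H3f3b from 102 to 350 bp upstream in replicate 3. The 2 peaks at Hist1h1d lie wholly downstream of the TSS and the 3 at H1fx all cross it.

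The part of each place held by every list that had a peak was widest at H2afy and H3f3b. It measured 455 bp of a total span of 662 bp at H2afy, 391 of 561 bp at H3f3b and 280 of 438 bp at Hist1h1c. It was 197 of 307 bp at Hist1h1d, 168 of 433 bp at H2afx and 113 of 332 bp at H1fx. All 16 replicate peaks were wider than the median of their list (193 to 611 bp, against list medians of 165, 164 and 153 bp). Of the 16, 15 were above the median score of their list, 8 were in its top 10% and 6 had a score of 100 or more, which 7.66, 7.81 and 7.17% of all peaks of replicates 1, 2 and 3 reached. The 6 were H3f3b in all 3 lists, Hist1h1c in replicate 1, and H2afx and H2afy in replicate 3. The shares given are over whole lists, most of whose peaks are in no common peak. How many common peaks reached the top 10% or a score of 100 was not counted. The 778 common peaks had median scores of 67.3, 68.0 and 65.2 in replicates 1, 2 and 3 and a median width of 280 bp. A score and width above the list median are thus usual for a common peak and not a trait of these genes.

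Set beside the other common peaks near a TSS, the linker and replacement genes ranged from near the top to near the bottom in score. A distance of 1000 bp or less was found for 134 of the 778 common peaks (17.2%), among them 5 of the 6 described here. Of those 134, 48.5% were in all 3 lists. H3f3b stood 24th of 115 such peaks by score in replicate 1, 26th of 109 in replicate 2 and 11th of 109 in replicate 3. H2afx stood at places 47, 46 and 33 and H1fx at 79, 38 and 87. Hist1h1c moved from place 13 in replicate 1 to 92 in replicate 2 and 57 in replicate 3, and Hist1h1d held places 58 and 84 in replicates 1 and 3.

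The core histone genes of the clusters, with 36 common peaks, had midpoints with a median of 184 bp past the TSS, and 31 of the 36 lay downstream. The 36 include the peak of Hist1h2ba, which is counted below with the replacement or testis-type genes. For the 5 near peaks at linker and replacement genes the median was 99 bp and the range −88 to 187 bp, with 4 of 5 downstream. Peaks at other genes within 1000 bp, leaving out that of the linker gene Hist1h1e, numbered 92, with a median of 12.5 bp and 49 downstream. Presence in all 3 lists was 4 of 5, 23 of 36 and 38 of 92 in the same order. Since these measures chose the genes, and peaks of neighbouring copies may share reads, no difference between the sets was tested. The Hist1h1c and Hist1h1d distances of 136 and 187 bp lay inside the range of the core histone peaks (−430 to 373 bp), as did those of the other 3.

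**Figure D3:**
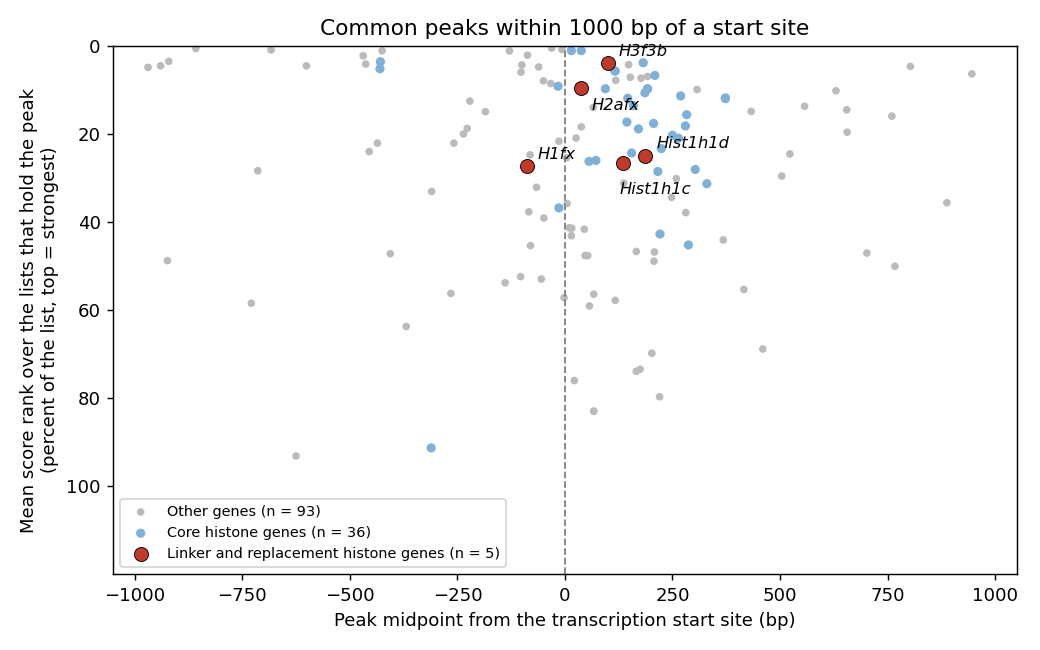
Mean score rank in percent of the list (vertical axis, strongest at the top) against the distance of the midpoint from the TSS (horizontal axis, in bp) for the 134 common peaks within 1000 bp of a TSS. The 5 linker and replacement genes (red) lie between −88 and 187 bp, H3f3b and H2afx at 3.88 and 9.52% and the 3 linker genes between 24.9 and 27.3%. Core histone genes, Hist1h2ba among them, are in blue and other genes, Hist1h1e among them, in grey.

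By the likeness of log2 scores over the 3 lists, among 61 other peaks within 1000 bp of a TSS and in all 3 lists, the nearest pattern to H3f3b was that of Srsf7, a splicing factor gene, with scores of 112, 116 and 255 in replicates 1, 2 and 3 (Euclidean distance 0.35). H2afx was nearest to the H4 gene Hist1h4n, with scores of 97.0, 73.4 and 108 (distance 0.25). H1fx was nearest to another H4 gene, Hist1h4i, with 61.9, 103 and 55.1 (distance 0.30). The closest to Hist1h1c was Hnrnpk, the gene of an RNA-binding protein, with 161, 53.6 and 91.4, at the longest distance of the 4 (0.52).

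Most genes of the same families had no common peak. Of 11 linker H1 genes, 4 had one within 5000 bp of the TSS: Hist1h1c, Hist1h1d, H1fx and Hist1h1e. Of 16 replacement or testis-type core histone genes, 3 had one: H3f3b, H2afx and Hist1h2ba, with H2afy farther off. Over all 21900 protein-coding genes of the reference table the share was 0.712%. The lists were drawn up with the bound genes known, so that these counts only place the genes among their relatives.

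Hist1h1e, the gene of the subtype H1.4, had a peak on chromosome 13 from 23714035 to 23714302 in exon 1 of 1, 259 bp downstream of the TSS. Its scores were 51.6 (replicate 1) and 61.8 (replicate 2). Replicate 3 held no peak there, whereas Hist1h1d was without a peak in replicate 2. The 3 cluster H1 genes thus all had their midpoint in the exon, between 136 and 259 bp behind the start. Hist1h2ba, the testis form of H2B, had a peak from 24025615 to 24026204 on chromosome 13 that scored 94.7, 248 and 109 in replicates 1, 2 and 3. Its class named a transcript of the neighbouring testis H2A gene, Hist1h2aa, so the peak may belong to either.

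The linker genes Hist1h1a, Hist1h1b, Hist1h1t, H1f0, H1fnt, H1foo and Hils1 were the nearest gene of 0 common peaks, as were H3f3a, H2afz, H2afv, H2afj, H2afy2, Cenpa and 6 more of the replacement list. Hist1h1t, the subtype of spermatocytes, and H1foo, that of oocytes, are among these. None of 25 genes of histone chaperones and exchange factors (such as Hira, Daxx, Atrx, Asf1a and Nasp) and none of 16 genes for the transcription and processing of histone mRNA (such as Slbp and Npat) stood nearest to any common peak. With 0.712% of all protein-coding genes having a common peak within 5000 bp, lists of this size would mostly hold none, and nothing is read from these counts of 0. Peaks of a single replicate at these genes were not looked for, because no annotation of the mm9 build was used here.

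The promoter windows differed between the linker genes of the cluster and H1fx. Windows of 300 bases (250 before to 50 after the start) were matched for Hist1h1c, Hist1h1d, H1fx, H3f3b and H2afy, 5 of the 6 genes. The searched motifs were the SOX cores AACAAT and ACAAT, the first of which contains the second, the related AACAAAG, the H1 box AAACACA, the CCAAT box, TATAAA, the GC box GGGCGG and the octamer ATTTGCAT, each on both strands. A match is a string of letters and not a measured binding site.

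The SOX core AACAAT was in 0 of the 5 windows and in 10.7% of all 32851 promoter windows of the table. The shorter ACAAT was in 2 of 5 (H3f3b, from 200 to 196 bases before the start, and H2afy, after it), against 31.02% of all windows and 31.9% of the 116 windows of other genes with a common peak within 1000 bp. AACAAAG was in 0 of 5, against 5.85% of all. These counts say only whether the letters are in those windows. If HOMER's TSS is the start used in the table, the peaks at Hist1h1c and Hist1h1d lay mostly or wholly outside them. The H2afy peak, 36904 bp downstream, lay wholly outside its window too.

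The H1 box AAACACA is an element known from linker histone promoters. It was in the windows of Hist1h1c (112 to 106 bases before the start) and Hist1h1d (122 to 116 before). The box was also in 7.18% of all windows and 11.2% of the 116. Of the 11 linker genes 5 held it, the others being Hist1h1b, Hist1h1e and Hist1h1t. Hist1h1b and Hist1h1t had no common peak. In the replacement list 3 of 14 windows held it (H3f3a, Hist1h2aa and Hist1h2ba). At Hist1h1c and Hist1h1d it stood within the same 10 letters, AACAAACACA, a string read in these windows and then counted. That string was in 0.25% of all windows and in those of 4 of the 11 linker genes, Hist1h1b, Hist1h1c, Hist1h1d and Hist1h1e. Hist1h1b, which had no common peak, carried it too. The Hist1h1c and Hist1h1d windows also shared a CCAAT box, 54 to 50 and 51 to 47 bases before the start, a motif that 37.4% of all windows and 48.3% of the 116 also held. If HOMER's TSS is the start used in the table, the H1 box lay upstream of the edge of the common peak at both genes. The common peaks began 82 bp before the Hist1h1c start and 75 bp after that of Hist1h1d. The 2 starts were 183775 bp apart in both assemblies. An equal distance does not show that the starts are the same, since both could be shifted alike.

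H1fx had neither an H1 box, a CCAAT box nor TATAAA in its window, and 1 GC box from 44 to 39 bases before the start, a motif in 35.7% of all windows and 58.6% of the 116. Its window held 77.7% G and C, a value that 98.06% of all windows did not exceed, and 40 CpG pairs. That of Hist1h1d held 45.7% G and C with 10 CpG pairs and that of Hist1h1c 50.3% with 19, against medians of 52.7% and 7 over all windows and 59.5% and 21 over the 116. The H3f3b window held 55.0% with 24 CpG pairs and that of H2afy 74.3% with 37.

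The H3f3b window carried the most motif matches of the 5. It held 4 CCAAT boxes, starting 214, 190, 167 and 97 bases before the start, the octamer on the reverse strand from 74 to 67 before it and TATAAA from 27 to 22 before it. The octamer was in 1.74% of all windows and in 10 of the 116 (8.62%), and TATAAA in 13.6% of all and 23.3% of the 116. At least 1 CCAAT box was in 37.4% of all and 48.3% of the 116. If HOMER's TSS is the start used in the table, which was not tested, the common peak covered the nearest CCAAT box, the octamer and TATAAA. The second peak of replicate 3 covered the other 3 CCAAT boxes. A stretch of 50 bases, the read length, was shared with a window of another gene only at H1fx, by 1 gene (Gm5577), and at none of the other 4. This covers the windows only and not the exons or introns under the peaks.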

How the data were processed

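Peaks had been called per sample, with a caller whose peak names start with MACS. Bowtie2 2.0.0 and build mm9 are given per the submitters' processing notes. Settings of the peak caller and the handling of reads that fit several places are not stated in any source read, which matters for similar histone copies. The peak score in the deposited lists is the authors' own value, of unstated scale. Fixation was 8 min in 1% formaldehyde and sonication 15 min, with 50 bp single reads, per the labels' protocols. The table of common peaks, its classes and its distances in bp come from HOMER on mm9, per the file headers. The deposited score of that table stood at 0 for each of its 778 peaks and gave no value.

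A replicate peak was assigned to a common peak by an overlap of at least 1 bp, the highest score being taken where 2 overlapped. Ranks were set within each list. Distances of replicate peaks used the TSS implied by HOMER's distance and the strand in the RefSeq promoter table (GRCm38.p6). That reference was otherwise used for names, gene numbers and sequence. Overlap and motif searches were tested on simulated data with bedtools 2.31.1, Python 3.11.15 and pandas 2.3.3. The genes named are the 6 chosen genes, members of the family lists with a common peak, common peaks within 10000 bp and the most alike peak. Genes, lists and motifs were chosen with earlier results of these data known. No test was made, since the values chose the genes. Alternatives were overlap, score and distance limits, leaving out each replicate, and the promoter window.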

Additional observations from a re-analysis of the deposited data

How the results depend on the processing

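Of 35 alternative values of the counts and distances, 28 kept within 1.5 times the count, or within 1 SD (28.6 bp) of the median distance. The 28 are not independent checks. Each gene had 1 common peak, so counts of genes and of peaks were the same, and taking 1 peak per gene could change nothing. The SD came from the medians of the 3 lists (117.5, 68.0 and 117.5 bp), the same values that return when a replicate is left out. With replicate peaks of a score of 50 or more, the genes with a peak in all 3 lists fell from 4 to 2 (H3f3b and H2afx), as did the common peaks in all 3 lists, against 21.1% of all common peaks. A limit of 60 gave 2 and 2 again (18.9%), and 3 instead of 5 common peaks within 1000 bp of the TSS were then left in at least 2 lists. Leaving out 1 replicate gave 4 to 6 genes and 4 to 6 peaks in both remaining lists, 6 being without replicate 2, and 4 to 5 near the TSS. Of all common peaks, 50.3, 55.9 and 53.7% were in both remaining lists without replicates 1, 2 and 3. The median distance of 117.5 bp became 68.0 bp without replicate 1 or replicate 3, since Hist1h1d and H2afy are then not in both remaining lists, and stayed at 117.5 bp without replicate 2. From the midpoints of the replicate peaks it was 142 bp. The related genes with a near peak numbered 5 to 6 instead of 7. The windows with ACAAT fell from 2 to 1 when only the 250 bases before the start were searched. No paired analysis was possible because there is 1 group with replicate numbers. Taking the peak of longest overlap and taking the gene named in the class of the peak were chosen after seeing the data. The first could not change the count of 16 replicate peaks and gave the same scores. The second kept the count at 7 but put Hist1h2aa in the place of Hist1h2ba. The 10-base string was also added after seeing the data, as a further motif. The unknown read depth limits what the absence of a peak in replicate 2 can show: it is a peak not called at this depth.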
